A study of Mus musculus with 36 samples.

Results

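The genes described here are 9 members of the family of regulators of G protein signalling (RGS), namely Rgs1, Rgs2, Rgs3, Rgs5, Rgs10, Rgs12, Rgs14, Rgs16 and Rgs19, out of 52230 genes to which the deposited transcripts were summed. The 9 genes were chosen by their own read counts across the 10 culture conditions, so their levels and differences are given as a description, without p-values. The libraries were made from primary hepatocytes of 3 female P446L mice (age 14 wk), a knock-in line whose Gckr encodes GKRP-446L in place of GKRP-446P. The labels give the genotype as Gckr-446L for mice 1 and 2 and as Gckr-446P/L for mouse 3, whereas the study describes homozygous animals. Each mouse contributed cells to all 10 conditions. Cells were left untreated or received adenoviral vectors for human GKRP-446P (hP), human GKRP-446L (hL), mouse GKRP-446P (mP) or mouse GKRP-446L (mL), each at endogenous glucokinase (GK) or together with a GK vector (GK+hP, GK+hL, GK+mP, GK+mL), and 1 condition received the GK vector alone (GK). The cultures were kept for 24 h at 5 mM glucose and were then incubated for 4 h with 25 mM glucose. Insulin and dexamethasone were at 10 nM. Untreated and GK cells were cultured in duplicate from each mouse, and the 36 libraries held between 3924674 and 10046158 estimated reads. Duplicate cultures were summed, which gave 30 samples with n = 3 mice for every condition. The untreated cells received no vector, so an effect of GKRP and an effect of vector exposure cannot be told apart in a comparison with them. The study asked whether GKRP-446P and GKRP-446L differ in function at endogenous or raised GK.

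Heterotrimeric G proteins carry signals from cell surface receptors. The alpha subunit is active while it holds GTP and is switched off when it hydrolyses it, and RGS proteins speed up this hydrolysis through a shared RGS domain. Rgs2 is known as a regulator of Gq, Rgs16, Rgs5, Rgs3, Rgs1 and Rgs19 act on Gi and Gq alpha subunits, Rgs10 and Rgs14 act mainly on Gi, and Rgs12 and Rgs14 are large proteins with further signalling domains. Glucokinase catalyses the first step of glucose metabolism in the hepatocyte, and GKRP binds it, inhibits it and retains it in the nucleus. Rgs16 is known as a gene of the hepatocyte that responds to glucose through the transcription factor ChREBP.

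Rgs16 spans chromosome 1, 153616091 to 153621228, on the plus strand (GRCm39), and the files held 1 transcript of it, Rgs16-201, of 2339 bases. It lies inside the antisense lncRNA Gm28513, to which 5.81 reads were assigned over the 36 libraries, against 3311 to Rgs16. Whether the counting used strand is not given in the sources used here. The 250 bases before the Rgs16 start are shown because Rgs16 was the member that varied most between conditions, beside the same stretch of Txnip and Arrdc4, chosen after the matches were seen from the 8 genes whose profile was most like that of Rgs16. These RefSeq windows are on GRCm38.p6: chr1:153740103-153740352 on the plus strand for Rgs16, chr3:96557707-96557956 on the plus strand for Txnip and chr7:68749239-68749488 on the minus strand for Arrdc4. Capitals mark CACGNG on either strand, which includes every E-box CACGTG.
Rgs16: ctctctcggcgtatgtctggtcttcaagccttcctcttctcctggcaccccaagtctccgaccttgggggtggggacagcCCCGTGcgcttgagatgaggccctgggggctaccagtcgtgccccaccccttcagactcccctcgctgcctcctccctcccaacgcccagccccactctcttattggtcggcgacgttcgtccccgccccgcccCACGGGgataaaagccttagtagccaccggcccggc
Txnip: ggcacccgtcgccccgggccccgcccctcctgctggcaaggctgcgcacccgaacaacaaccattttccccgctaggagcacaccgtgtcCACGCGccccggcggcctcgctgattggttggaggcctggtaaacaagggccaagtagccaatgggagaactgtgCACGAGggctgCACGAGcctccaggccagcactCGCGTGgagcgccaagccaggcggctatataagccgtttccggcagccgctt
Arrdc4: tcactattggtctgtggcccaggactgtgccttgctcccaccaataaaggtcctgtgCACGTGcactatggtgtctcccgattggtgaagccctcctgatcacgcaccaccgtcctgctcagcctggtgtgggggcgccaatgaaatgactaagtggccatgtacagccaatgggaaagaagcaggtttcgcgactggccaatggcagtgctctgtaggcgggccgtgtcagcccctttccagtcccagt
Rgs16 held CACGNG at 170 and 36 bases before its start and no CACGTG. Arrdc4 held CACGTG at 193 bases before its start. CACGTG was found, on either strand, in 6.02% of the 32851 windows of this length in the table and CACGNG in 23.5%. The 7 members with at least 1 window in the table had 11 windows. Of these 11 windows, 4 held CACGNG (in Rgs2, Rgs10, Rgs12 and Rgs16) and 0 held CACGTG. Of the 7 of those 8 genes with a window, 4 held CACGNG (Txnip, Arrdc4, Pygl and Slc30a10) and 1 held CACGTG (Arrdc4), while Slc25a47, the gene most like Rgs16, held neither. A match is a description of these letters and not a binding site.

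Rgs16 was low in untreated cells, several-fold higher with GK alone, and near or below the untreated level where GKRP-446P was expressed together with GK. In CPM (a library's reads scaled to a common total, with TMM factors) it measured 3.46, 9.75 and 12.4 in the untreated cells of mice 1, 2 and 3 (8.55 ± 4.61, SD, n = 3). With GK alone it measured 26, 58.6 and 54.5 CPM (46.4 ± 17.7, n = 3). Every GK value was above every untreated value, and mouse 1 was lowest in both conditions. In the single cultures the GK levels were 22.3 and 28.4 CPM in mouse 1, 58.8 and 58.0 in mouse 2 and 53 and 56.7 in mouse 3. Both cultures of mouse 1 lay below those of the other mice, and mice 2 and 3 lay close together.

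With GK and GKRP-446P, Rgs16 measured 5.44, 7.11 and 3.01 CPM for hP and 6.89, 7.55 and 2.84 CPM for mP. With GKRP-446L it measured 11.6, 19.6 and 8.63 CPM for hL and 20.7, 45.1 and 23.2 CPM for mL. The hP, mP and hL ranges lay below that of GK alone, while the mL range overlapped it. At endogenous GK the means were 2.80 ± 1.11 for hP, 4.71 ± 1.16 for hL, 4.06 ± 1.90 for mP and 5.66 ± 2.74 CPM for mL (SD, n = 3). Over the 10 conditions the means rose in the order hP, mP, hL, GK+hP, mL, GK+mP, untreated, GK+hL, GK+mL and GK, and the highest mean was 16.6 times the lowest. Each neighbour in this order overlapped the next, except GK+hL and GK+mL.

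**Figure D1:**
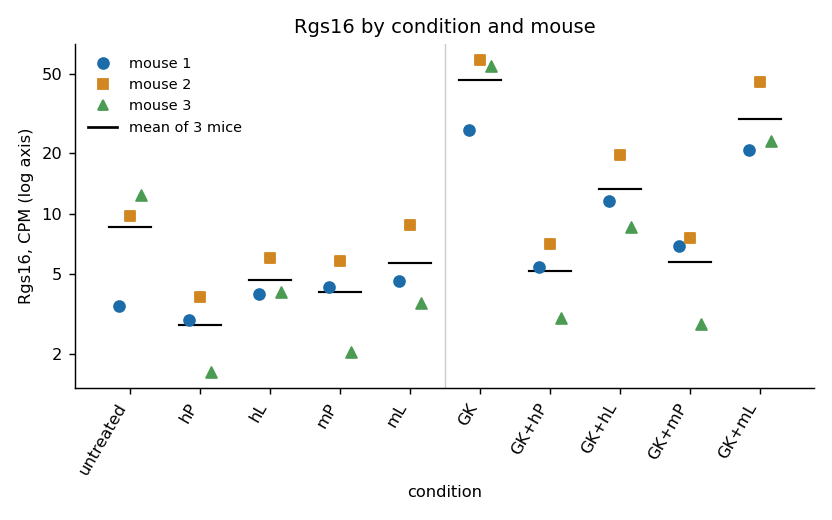
Rgs16 in CPM on a log axis in the 10 conditions, with 1 point per mouse and the mean of 3 mice as a bar. The GK values (26 to 58.6 CPM) stand above the untreated values (3.46 to 12.4 CPM), and of the 4 conditions with GK and GKRP the mL values (20.7 to 45.1 CPM) overlap GK alone.

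A gene was called where the edgeR quasi-likelihood test gave an adjusted p under 0.05 and a fold of at least 1.3 or at most 0.7. Against untreated cells Rgs16 was 5.39-fold higher with GK (log2 fold change 2.43, SE 0.49) and higher in 3 of 3 mice. It was not called in that comparison, in which 0.00821% of the 12177 genes tested were called, and it was called when the fit held a term for the mouse (log2 fold change 2.40, SE 0.35), where 0.361% were. Against the 5 conditions at endogenous GK combined, it was 8.82-fold higher (log2 fold change 3.14, SE 0.35), the contrast that the study used to limit effects of the vectors. There Rgs16 was the 1 member called of the 7 that passed the filter on low counts, beside 0.427% of the genes tested. It remained called in each of the 13 settings of that comparison, the main one included. These settings reuse the counts by which the members were chosen, so calls of members are a description and not support.

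Among cells with the GK vector, Rgs16 was lower where GKRP was expressed too. The 4 conditions with GK and GKRP averaged 4.45-fold below GK alone (log2 fold change -2.15, SE 0.33), lower in 3 of 3 mice. Rgs16 was again the 1 member called, beside 1.61% of the genes tested. By vector the log2 fold change was -3.17 (SE 0.52) for hP, -3.00 (SE 0.52) for mP, -1.80 (SE 0.49) for hL and -0.65 (SE 0.47) for mL. Rgs16 was called with hP (0.879% of genes called) and mP (1.63%), and not with hL (0.599%) or mL (0.591%). With a mouse term it was called with hL too (log2 fold change -1.84, SE 0.36, 2.54% of genes called). Without mouse 3 the calls against GK alone were lost, at -1.79 (SE 0.37) for the 4 vectors together, -2.75 (SE 0.57) for hP and -2.56 (SE 0.56) for mP. In that order, 24 higher and 4 lower, 11 and 3, and 24 and 5 of 12170 genes were called without mouse 3.

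At raised GK Rgs16 was higher with GKRP-446L than with GKRP-446P of either species. The log2 difference was 1.36 (SE 0.51) for human and 2.35 (SE 0.51) for mouse GKRP, each higher in 3 of 3 mice with no overlap of the ranges. How many of all genes tested separate in this way was not counted, here or against GK alone and untreated cells. Such separation of Rgs16 is therefore only a description. Neither was called. For human GKRP 0.0% of the genes were called, with 128 higher and 127 lower at an unadjusted p under 0.05 and 3 higher and 8 lower by DESeq2. For mouse GKRP 0.0164% were called. With a mouse term Rgs16 was called for mouse GKRP (log2 difference 2.30, SE 0.38, 0.214% of genes called). At endogenous GK the differences were 0.74 (SE 0.55) for human and 0.45 (SE 0.53) for mouse GKRP, in the same direction in 3 of 3 mice.

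GKRP at endogenous GK gave Rgs16 levels below untreated cells on average. The log2 fold change of the 4 vectors together was -1.04 (SE 0.37), lower in 2 of 3 mice, and was not called beside 1.89% of the genes. With a mouse term it was called (-1.09, SE 0.29, 4.16% of genes called), and without mouse 3 the value was -0.46 (SE 0.42). The response of Rgs16 to GK had log2 fold changes of 0.86 (SE 0.55) in the presence of hP, 0.50 (SE 0.53) with mP, 1.49 (SE 0.52) with hL and 2.40 (SE 0.51) with mL, higher in 3 of 3 mice for each vector. The mean response with GKRP was 1.11 lower than the response without it on the log2 scale in the interaction term (-1.11, SE 0.54), a test in which 0.0% of genes were called, with 86 higher and 92 lower at an unadjusted p under 0.05 and 18 higher and 2 lower by DESeq2.

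The mouse GKRP vectors were checked in the same libraries. Gckr reached means of 11480 to 17627 CPM with them, against 57.1 ± 16.2 CPM in untreated cells (SD, n = 3). It was lower with mL than with mP in every mouse. At raised GK it measured 10944, 9010 and 14485 CPM with mL and 14778, 14383 and 20146 CPM with mP in mice 1, 2 and 3. At endogenous GK the means were 14279 CPM with mL and 17627 CPM with mP. The part of unequal vector RNA in the differences between mL and mP was not tested. Reads of the human vectors have no transcript in the mouse reference. One GK culture, the first of mouse 3, held 1463 CPM of Gckr against 51.7 to 98.0 CPM in the other 5. Rgs16 measured 53 CPM in it, and without it the difference of GK from untreated cells was 2.45 (SE 0.49).

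The other 8 members varied less between conditions. On the length-corrected TPM scale of the deposited files, the medians over the 36 libraries were 4.07 for Rgs2, 3.51 for Rgs12, 3.05 for Rgs19, 2.24 for Rgs16, 1.56 for Rgs1, 1.2 for Rgs5, 0.697 for Rgs3, 0.616 for Rgs10 and 0 for Rgs14. Within a library, Rgs16 had the highest TPM of the 9 members in 6 of 6 GK cultures and in 0 of 6 untreated cultures. Between libraries, TPM was used only for medians and for 1 ratio among the processing alternatives. For Rgs16, with 1 transcript and effective lengths of 1488 to 2186 bases, 1 CPM corresponded to between 0.0596 and 0.602 TPM.

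In the GK against untreated comparison the log2 fold changes of the other 6 tested members lay between -0.10 (SE 0.38) for Rgs19 and 0.37 (SE 0.56) for Rgs12. In the comparison with the 5 combined conditions the highest of them was 0.47 (SE 0.33) for Rgs1, and the median of the 7 tested members, Rgs16 included, was 0.23 beside -0.01 over all genes. Under GK with GKRP against GK alone they lay between -0.58 (SE 0.33) for Rgs1 and 0.11 (SE 0.44) for Rgs12. None of the 6 was called in these comparisons or with a mouse term in them.

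**Figure D2:**
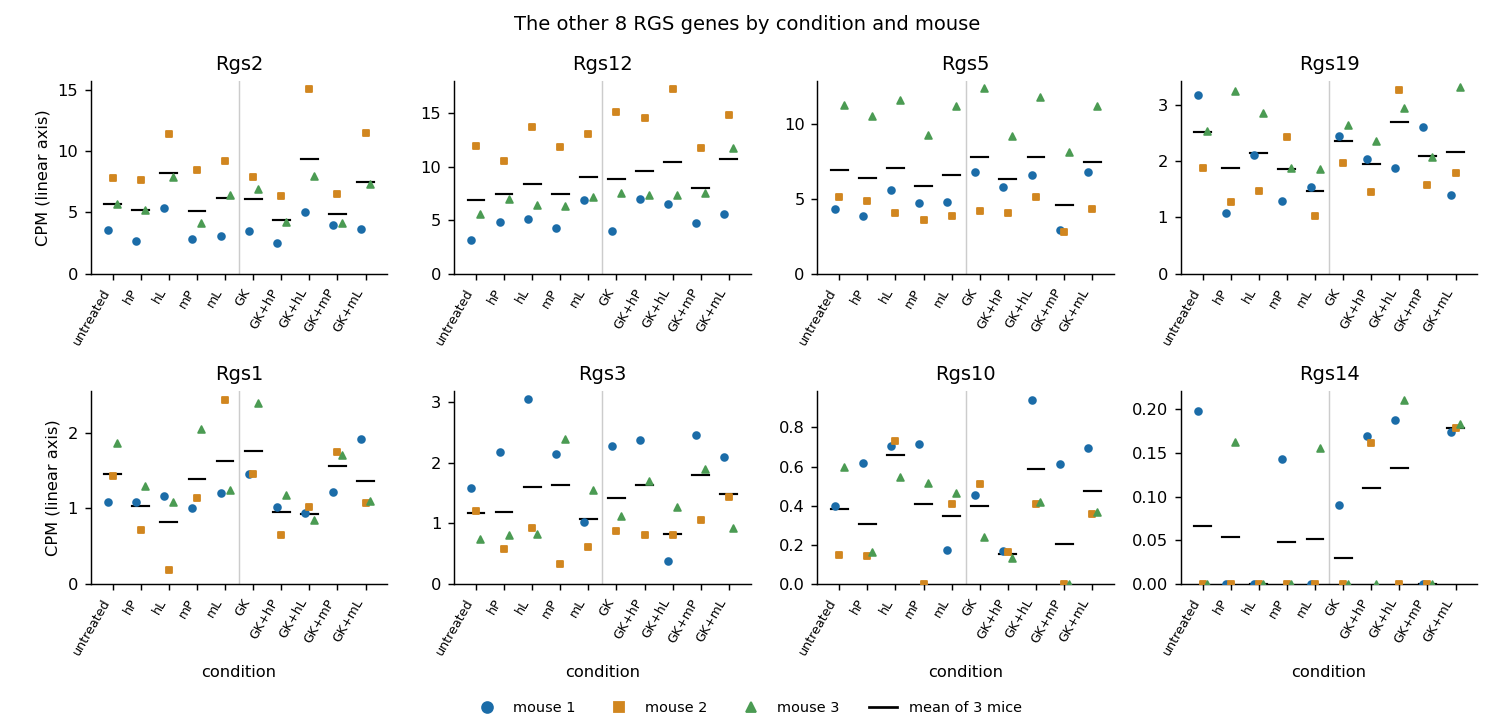
The 8 members other than Rgs16 in CPM on linear axes, with 1 point per mouse and the mean of 3 mice as a bar. Mouse 2 is highest in all 10 conditions for Rgs2 and Rgs12, and mouse 3 for Rgs5, while the order of the other mice changes for Rgs5.

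Rgs2 was higher with human GKRP-446L than with human GKRP-446P. At raised GK it measured 5.07, 15.1 and 8.0 CPM with hL and 2.55, 6.30 and 4.19 CPM with hP in mice 1, 2 and 3. At endogenous GK it measured 5.39, 11.4 and 7.90 CPM with hL and 2.64, 7.67 and 5.2 CPM with hP. Each mouse was higher with hL in both settings, although the ranges over mice overlapped. The log2 difference was 1.10 (SE 0.53) at raised and 0.67 (SE 0.53) at endogenous GK. Rgs2 was not called at raised GK, and it was called with a mouse term (1.07, SE 0.18), where 0.131% of genes were. For mouse GKRP the difference was 0.62 (SE 0.53), higher in 2 of 3 mice, at raised GK and 0.27 (SE 0.53), higher in 3 of 3 mice, at endogenous GK.

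Rgs5 had its lowest mean in GK+mP, at 2.91, 2.81 and 8.14 CPM, against 6.80, 4.21 and 12.4 CPM with GK alone. Every mouse was lower with mP, while the ranges overlapped. The log2 fold change was -0.76 (SE 0.59), not called, and with a mouse term it was called (-0.79, SE 0.17), where 6.36% of genes were. The summed CPM of 11 stellate and pericyte markers was 47.9 to 161 in GK+mP and 57.7 to 158 in GK. Their part in the difference was not tested.

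**Figure D3:**
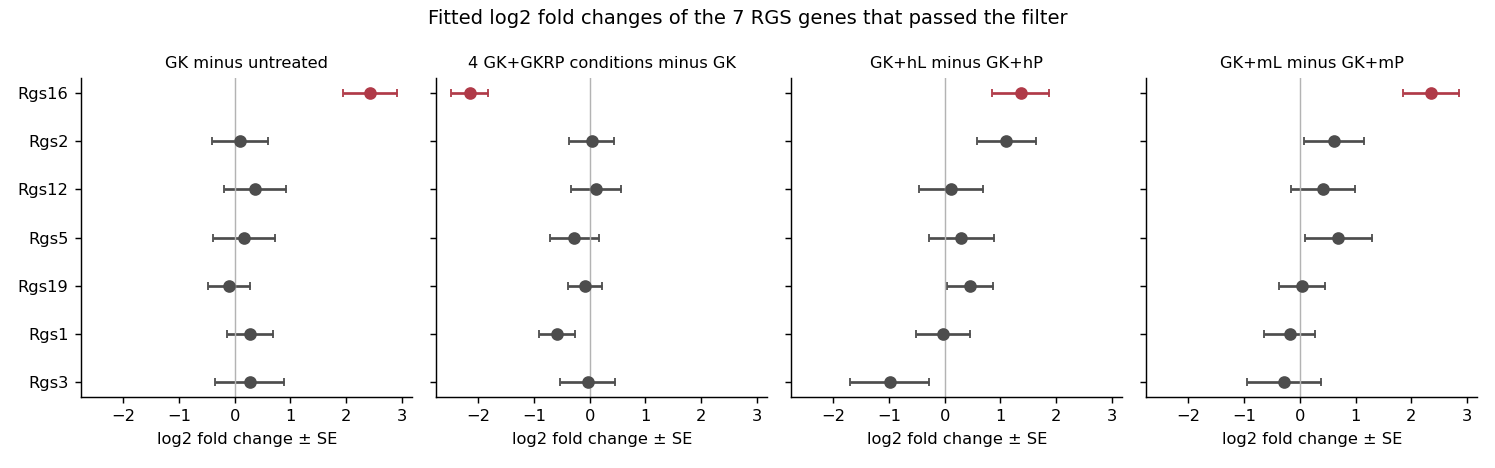
Fitted log2 fold changes with their standard errors for the 7 tested members in 4 comparisons. Rgs16 lies at 2.43, -2.15, 1.36 and 2.35, and of the others Rgs2 in GK+hL against GK+hP has the highest value (1.10).

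Rgs1, Rgs3 and Rgs19 were near the lower limit of what these libraries resolve, with medians of 8.03, 6.20 and 11.6 reads per library. Rgs1 was lower in 3 of 3 mice with hP and GK (0.646 to 1.18 CPM) and with hL and GK (0.842 to 1.02 CPM) than with GK alone (1.45 to 2.40 CPM), with log2 fold changes of -0.88 (SE 0.44) and -0.91 (SE 0.46), neither called. Rgs19 was lower in 3 of 3 mice with mL (1.02 to 1.87 CPM) than in untreated cells (1.87 to 3.17 CPM), with a log2 fold change of -0.75 (SE 0.41). Rgs19 overlaps the antisense gene Tcea2, which held 176 reads against 465 of Rgs19. Rgs3 ranged from 0.324 to 3.05 CPM over the 30 samples. Rgs10 (84.2 reads over all libraries) and Rgs14 (13 reads, with 23 of 36 libraries at 0) did not pass the filter, and no difference in them was detectable at this depth.

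The members differed between mice in ways that recurred over the conditions. Rgs2 and Rgs12 were highest in mouse 2 in 10 of 10 conditions, with medians over conditions of 3.51, 8.13 and 6.02 CPM for Rgs2 and 4.98, 13.4 and 7.25 CPM for Rgs12 in mice 1, 2 and 3. Rgs16 was highest in mouse 2 in 9 of 10 conditions. Rgs5 was highest in mouse 3 in 10 of 10 conditions, at 8.14 to 12.4 CPM against 2.81 to 6.80 in mice 1 and 2. Rgs3 was highest in mouse 1 in 7 of 10 conditions. The conditions share their cell preparation within a mouse, so these counts rest on 3 animals, and mouse, preparation and labelled genotype cannot be told apart.

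Rgs5 is known from pericytes and Rgs1 and Rgs19 from leukocytes, and in bulk RNA fewer cells of a type and less RNA per cell cannot be told apart. Of the 11 stellate and pericyte markers 7 had their highest median in mouse 3, among them Lrat (0.691, 0.455 and 1.83 CPM in mice 1, 2 and 3), the retinol esterifying enzyme of stellate cells, and Pdgfra (1.37, 0.935 and 2.76 CPM), a growth factor receptor of mesenchymal cells. The pericyte markers Cspg4 and Notch3 were at 0 in 33 and 28 of 36 libraries. The summed list was highest in mouse 2 (143 to 178 CPM, against 44.2 to 57.7 in mouse 1 and 73.4 to 100.2 in mouse 3), mostly through Reln (119 CPM in mouse 2). Endothelial markers summed to 143 to 164 CPM in mouse 3 and 80.6 to 125 in mice 1 and 2, and 6 of the 10 were highest in mouse 3. Macrophage markers summed to 273 to 373 CPM over the mice, led by Cd68 (medians of 130, 232 and 208 CPM in mice 1, 2 and 3), while 8 of the 12 were highest in mouse 1. Leukocyte markers summed to 169 to 241 CPM in mouse 1 and 305 to 429 in mice 2 and 3, mostly through Lcp1 (196, 359 and 365 CPM), while 3 of the 5 were highest in mouse 1. Cholangiocyte markers had summed medians of 166, 17.9 and 27.7 CPM, with the excess of mouse 1 in Spp1 (152, 8.22 and 14 CPM), while Krt19 was lowest in mouse 1. Lymphocyte markers summed to at most 0.872 CPM, with Nkg7 and Trbc2 at 0 in all libraries. Hepatocyte markers summed to 73969 to 140470 CPM, highest in mouse 2. The part of other cells in the members' levels was not tested.

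**Figure D4:**
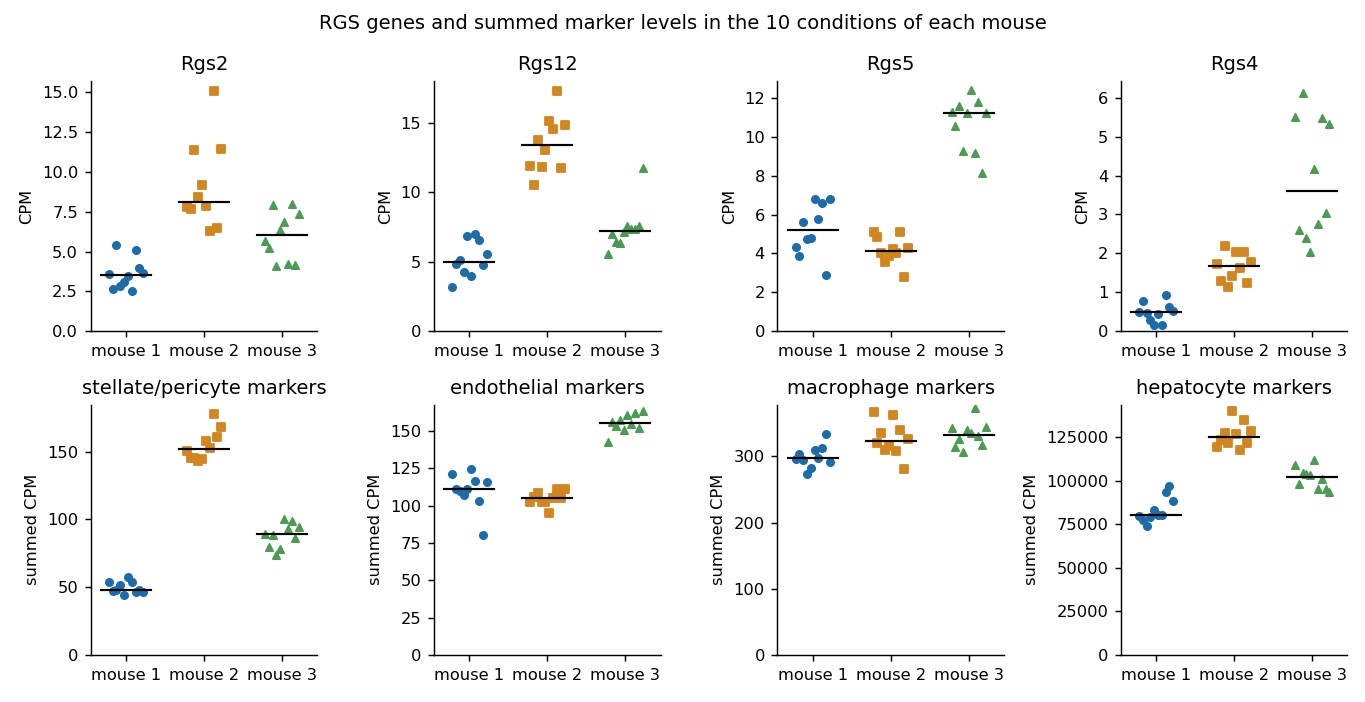
CPM of Rgs2, Rgs12, Rgs5 and Rgs4 and summed CPM of 4 marker lists, with 1 point per condition and the median as a bar for each mouse. Rgs2 and Rgs12 are highest in mouse 2, as are the stellate and pericyte sum and the hepatocyte sum. Rgs5 and Rgs4 are highest in mouse 3, as is the endothelial sum, and the macrophage sums overlap between mice.

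The reads of Rgs16 and Rgs5 fell on 1 transcript each (100% and 99.9%). Of the Rgs2 reads, 67.7% were assigned to the coding transcript Rgs2-202 of 3021 bases and 27.3% to Rgs2-201 of 763 bases, annotated as a target of nonsense-mediated decay, and the share of Rgs2-202 was 69.4%, 69.2% and 64.6% in mice 1, 2 and 3. Of the Rgs1 reads, 6.99% were assigned to protein-coding transcripts and 58.1% to Rgs1-204, annotated as a decay target. Of the Rgs12 reads, 29.6% fell on Rgs12-201, the transcript of 5472 bases, with 55.7% in mouse 1, 13.7% in mouse 2 and 42.3% in mouse 3. Rgs12 was highest in mouse 2, where the share of this transcript was lowest. Such shares are Salmon's division of reads that fit several transcripts, and at these read counts they were not compared between conditions.

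The remaining RGS genes had few reads in these cells. Of 15 other RGS and RGS-binding genes, 11 had reads and 1, Rgs4, passed the filter. Rgs4, like Rgs5 a regulator known from pericytes and smooth muscle, was highest in mouse 3 in 10 of 10 conditions (2.02 to 6.13 CPM, against 0.170 to 0.939 in mouse 1) and was not called in the comparisons above. Rgs20 had the highest median TPM of that list (0.595). RGS domains also occur in other proteins, and 12 of 15 of these were tested, led by the receptor kinase Grk2 (median 49.0 TPM). None was called without a mouse term, in comparisons where at most 1.89% of all genes tested were.

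Few genes of the surrounding G protein pathway were called, and few were over all genes tested. Over the lists of other RGS genes, RGS domain proteins, G protein alpha, beta and gamma subunits, effectors and receptors, 60 of 139 genes were tested. Their median log2 fold change was 0.07 for GK against the 5 combined conditions, beside -0.01 over all genes, with 0 called, 2 higher and 1 lower at an unadjusted p under 0.05, and 0 called by DESeq2. Over all genes, 0.427% were called there by edgeR, and 77 higher and 88 lower by DESeq2. The median of the 60 was -0.03 for GK with GKRP against GK alone, beside 0.01 over all genes, with 0 called, 3 higher and 6 lower at an unadjusted p under 0.05, and 0 called by DESeq2. Over all genes, 1.61% were called there by edgeR, and 214 higher and 85 lower by DESeq2. At 60 genes tested, 0 calls cannot be told apart from these shares. The most abundant of each list were Gnas (alpha subunit, median 336 TPM), Gnb1 (beta subunit, 369 TPM), Rhoa (a GTPase, 231 TPM) and Gcgr (the glucagon receptor, 9.27 TPM), and their log2 fold changes for GK against the 5 combined conditions were 0.13 (SE 0.09), 0.13 (SE 0.07), 0.16 (SE 0.08) and 0.33 (SE 0.20).

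Gnat1, the transducin alpha subunit known from rod photoreceptors, was the 1 gene called of the 60 tested in these lists, for GKRP against untreated cells, where 1.89% of all genes tested were called. It measured 2.38, 2.62 and 1.94 CPM in untreated cells. With GKRP at endogenous GK its means were 4.05 ± 1.11 (hP), 4.60 ± 0.279 (hL), 5.06 ± 0.389 (mP) and 4.79 ± 1.36 CPM (mL) (SD, n = 3). The log2 fold change was 0.99 (SE 0.21, edgeR adjusted p = 0.00998), higher in 3 of 3 mice, with 827 reads in all and no other annotated gene overlapping it. The call was lost without mouse 1 (adjusted p = 0.0858), mouse 2 (0.0635) or mouse 3 (0.631) by edgeR, and under 2 other settings. With a mouse term the calls in these lists numbered 4 for GKRP against untreated cells (4.16% of genes called), all higher, namely Gnat1 (0.98), Adcy6 (0.43), an adenylyl cyclase, and the receptors Gpr146 (0.53) and P2ry1 (1.07). For GK with GKRP against GK alone they numbered 2 (4.34% of genes called), Adcy6 (0.50) and the protease-activated receptor F2rl1 (-0.75). For hP with GK they numbered 2 (3.27% of genes called), the fatty acid receptor Ffar4 (-0.80) and Gcgr (-0.52). For mP with GK they numbered 6 (6.36% of genes called), with Adcy6 (0.60) and Gnat1 (0.73) higher and Gna13 (-0.70), Gng12 (-0.56), Arhgef12 (-0.67) and Ffar4 (-0.68) lower.

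The profile of Rgs16 over the conditions was compared with that of every other tested gene. Over the 10 condition means of log2 CPM, which share controls, libraries and mice, 7 of the 8 genes with the highest Pearson r to Rgs16, among 12176 tested, were Slc25a47 (0.985), a mitochondrial carrier of hepatocytes, the arrestin-domain gene Arrdc4 (0.979), the secreted lipase regulator Angptl8 (0.976), liver glycogen phosphorylase Pygl (0.975), Txnip (0.974), the thioredoxin-binding arrestin relative, the manganese transporter Slc30a10 (0.970) and glutamine synthetase Glul (0.969). With mouse means removed over the 30 samples, r of these 7 lay between 0.82 for Slc30a10 and 0.95 for Txnip. The lowest r were those of Pea15a (-0.950), choline kinase Chka (-0.950) and the Mediator subunit Med22 (-0.939). Of the other members Rgs5 had the highest r (0.579) and Rgs3 the lowest (0.0157).

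Txnip measured 16.6, 44.8 and 122.6 CPM in untreated cells and 97.9, 274 and 344 CPM with GK, so mouse 1 was lowest for it as for Rgs16. With GK and mP it measured 13, 37.4 and 37.7 CPM, and with GK and mL 53.7, 152 and 192 CPM. Txnip was called in GK against the 5 combined conditions (log2 fold change 3.10, SE 0.47, edgeR adjusted p = 0.000345), as were Slc25a47, Arrdc4, Angptl8 and Glul, with log2 fold changes from 1.3 for Glul to 2.43 for Angptl8. Pygl (0.61, SE 0.31) and Slc30a10 (1.39, SE 0.77) were not. In a list of 21 genes of the carbohydrate response, chosen with results of these data known, 12 of 19 tested were called higher in that comparison with 0 lower, beside 0.427% of all genes called, and the way the list was made leaves this count as a description.

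**Figure D5:**
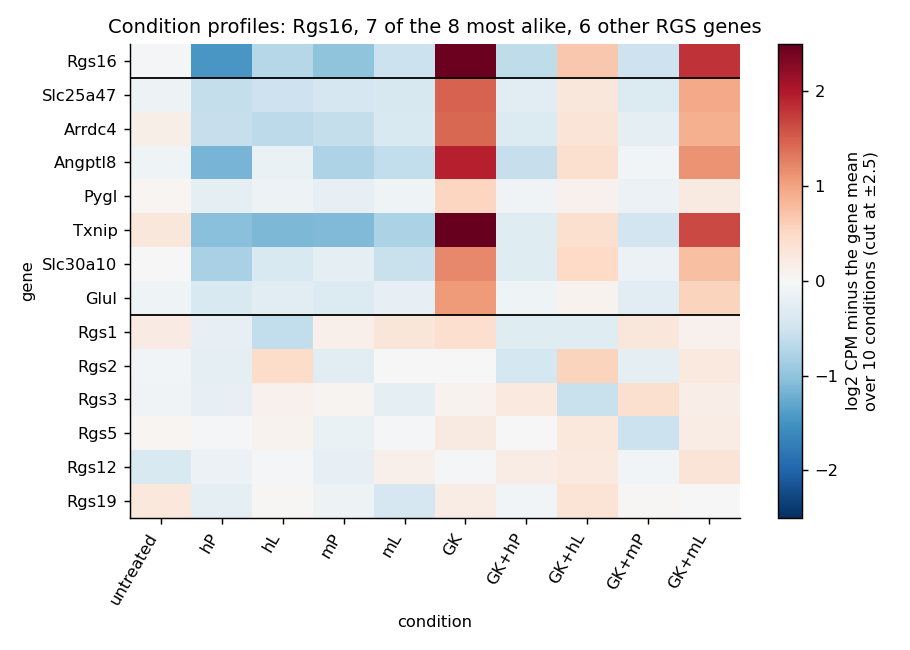
Mean log2 CPM per condition, minus the mean of the gene over 10 conditions, for Rgs16, 7 of the 8 genes with the highest r and the 6 other tested members. Rgs16 reaches 2.45 with GK and 1.81 with GK+mL, and the 6 other members stay between -0.62 and 0.56.

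Glul lies on the same chromosome, 154 kb downstream of Rgs16 (153775690 to 153785469, GRCm39). Within 250 kb of Rgs16 the annotation had 17 other genes, of which Glul and the pseudogene Gm6652 passed the filter, the window being set after the values were seen. Gm6652 had r = 0.36 and a log2 fold change of -5.48 with an SE of 2.91 in GK against the 5 combined conditions. Rgs8 and Rgsl1, the RGS genes on either side, had 7 reads and 1 read in all.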

How the data were processed

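Primary hepatocytes of 3 mice were profiled by RNA-seq in 10 conditions (36 libraries, 30 samples after duplicate cultures were summed). The authors judged that no library needed trimming, ran Salmon 1.4.0 against the mouse transcripts of Gencode release 26 (GRCm39), and deposited the resulting estimated count of each transcript, not normalized. The authors also deposited TPM, which Salmon scales by effective length within a library. The strand setting is not given in the sources used here. Transcripts were summed to genes with the Gencode release 39 annotation (98.8% of 139225 transcripts matched; unmatched ones held 0.392% to 0.639% of the reads), rounded, filtered with filterByExpr (12177 genes), scaled by TMM and fitted with edgeR 4.0.16 (R 4.3.3) by quasi-likelihood with Benjamini-Hochberg adjustment. GK against the 5 combined conditions used a fit of all 30 samples in 6 groups. In it the 5 conditions at endogenous GK were 1 group and every condition with the GK vector was its own group. The other comparisons used a fit of 10 conditions. An SE is the log2 fold change divided by the root of F. DESeq2 1.42.0, the study's tool, was an alternative. The script was tested on simulated data. Without a mouse term, p-values rest on the spread between the 3 mice within a group and leave out that the conditions share these mice. In the combined group of 5 conditions that spread also holds differences between conditions and repeated samples of the same 3 mice. Counting error sets the precision of members under 10 reads a library.

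The replicate number is the mouse, so samples with the same number come from the same animal. Deviations from condition means correlated at 0.223 within mice and -0.110 between mice on average. The second value follows largely from the first, since the deviations of the 3 mice from a condition mean add up to 0. The members and lists were chosen with earlier results of these data known. Genes named were the 9 members, list genes called in a comparison, the gene of highest TPM in each list, the 8 genes most and 3 least like Rgs16 over condition means, and Gckr, except items that are not reported here. Genes called with the mouse as a term, the marker genes Lrat, Pdgfra, Cspg4, Notch3, Reln, Cd68, Lcp1, Spp1, Krt19, Nkg7 and Trbc2, and the neighbours of Rgs16 were named after their values were seen. Promoter windows are RefSeq's on GRCm38.p6.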

Additional observations from a re-analysis of the deposited data

Results flagged for a closer look

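In the 6 GK cultures, Rgs3 was highest in the first culture of mouse 1, at 3.82 CPM from 16.9 reads, and its gap to the next value (1.27 CPM) was 0.820 of the range, above Dixon's 95% limit for 6 values. Rgs14 had 1 GK culture at 0.226 CPM and 5 at 0. These were 2 of 18 sets of 6 cultures examined. The limit flags about 1 set in 20 by chance for independent, normally distributed values. That rate does not apply here, because each set holds 2 cultures from each of 3 mice and the Rgs14 flag rests on 1 read. For Rgs1 the response to GK was 0.27 (log2) without GKRP, higher in 3 of 3 mice, and -0.11 with hP, lower in 3 of 3 mice. The values with hP rest on 7, 5 and 8 reads in mice 1, 2 and 3 without GK and on 6, 4 and 9 reads with it. Without GKRP, mouse 2 measured 1.42 CPM in untreated cells and 1.45 CPM with GK. These differences are within what counting error can produce, and the difference between the 2 responses was not tested for Rgs1.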

How the results depend on the processing

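The direction of every Rgs16 difference named in the report held under the alternatives run: 12 for GK against the 5 combined conditions (2.98 to 3.38) and 11 for each of the others, among them GK against untreated (2.32 to 2.77), GK with GKRP against GK alone (-2.42 to -1.79), GK+hL against GK+hP (1.16 to 1.5) and GK+mL against GK+mP (2.15 to 2.69). On the TPM scale, whose relation to CPM differed between libraries, the log2 ratio of mean Rgs16 levels, GK to untreated, was 3.04 in place of 2.42. Where the calls moved, the cause was not tested.

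With the mouse as a replicate block, the paired fit, the members called numbered 1 for GK against untreated, 1 for GKRP against untreated, 1 for hL with GK, 1 for GK+mL against GK+mP (each Rgs16), 1 for GK+hL against GK+hP (Rgs2) and 2 for mP with GK (Rgs16 and Rgs5), and the list genes called numbered 4 for GKRP against untreated, 2 for GK with GKRP, 2 for hP with GK and 6 for mP with GK. Among the comparisons whose calls were counted, the block changed no other call of a member. Calls with the block were not counted for the GK response in the presence of each vector or for single vectors against untreated cells. They were also not counted for GKRP-446L against GKRP-446P at endogenous GK. With DESeq2 the members called numbered 1 for GK against untreated, 1 for hL with GK and 1 for GK+mL against GK+mP. In that order, 21 higher and 11 lower, 97 and 47, and 12 and 7 of 12177 genes were called. The list genes called numbered 2 for GKRP against untreated (227 higher and 72 lower over all genes) and 1 for mP with GK (183 and 141). Taking each culture as a sample counts duplicate cultures of the same mouse as separate replicates. There the members called numbered 1 for GK against untreated, 1 for GKRP against untreated and 1 for hL with GK. In that order, 37 higher and 2 lower, 315 and 103, and 94 and 38 of 12281 genes were called. The list genes called numbered 3 for GKRP against untreated, 2 for GK with GKRP (265 and 119 over all genes) and 1 for mP with GK (213 and 145). Without a filter on low counts 1 member was called for GK against untreated (5 higher and 1 lower of 28578 genes). In that setting 0 list genes were called for GKRP against untreated (110 and 85 over all genes). With the transcript length offset 0 list genes were called for GKRP against untreated (23 and 17 of 12177 genes).

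Leaving out each replicate in turn, the members called ranged from 0 to 1 for GK with GKRP, hP with GK and mP with GK, each falling to 0 without mouse 3. The list genes called for GKRP against untreated were 0 in each case. Over all genes, 93 higher and 26 lower, 114 and 26, and 33 and 6 were called there without mouse 1, 2 and 3. Of the 8 genes most like Rgs16, 4 stayed among the first 8 by Spearman's rho and 3 over the 30 samples with mouse means removed. In all, 214 of 246 recomputed counts were unchanged or within 1.5 times. Most main counts of called genes were 0 and the others 1, so this share mostly holds counts that stayed at 0. It says little about the stability of the calls. Members under about 10 reads a library are limited by depth.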
